A study of Mus musculus with 18 samples.

Results

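The mucins and the enzymes that build their sugar chains were taken from a count table of the mouse exorbital lacrimal gland (LG) by gene symbol. The genes were the Muc genes, the GalNAc-transferases (Galnt), the sialyltransferases of the St3gal and St6gal families, the fucosyltransferases (Fut), the branching enzymes Gcnt and Mgat, the extending enzymes B3gnt and B4galt, and C1galt1 with its chaperone C1galt1c1. This rule selected 82 of the 23337 genes in the table. No measured value entered the rule, but it was set with earlier results of these data known.

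Mucins are large glycoproteins whose protein core is densely covered with O-linked sugar chains, and they hold water and lubricate wet surfaces such as the eye. A chain starts when a GalNAc-transferase places GalNAc on serine or threonine. C1galt1 then makes the core 1 structure, Gcnt enzymes branch it, B3gnt and B4galt enzymes lengthen it, and fucose or sialic acid caps its end. The Mgat enzymes branch N-linked chains, and many of the extending and capping enzymes act on N-linked chains and glycolipids too. In the tear film, gel-forming mucin comes mainly from conjunctival goblet cells, while the LG acinus secretes water, electrolytes and glycoproteins. Lymphocytes use the same capping enzymes to build the ligands of selectins, sialic acid-binding lectins and galectins.

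The samples were LGs of male NOR/LtJ mice (NOR below), a strain that develops autoimmune dacryoadenitis, and of male BALB/cJ mice (BALB/c), taken at 3, 8 and 16 weeks of age. Each of these 6 groups had 3 libraries. The study's methods imply single mice at 3 weeks, whereas later RNA was pooled from 2 to 3 mice per library. The sample titles name the diseased strain NOD while the genotype label says NOR/LtJ, and the genotype label was followed. The strains differ across the whole genome and the control is not a congenic line, so disease and genetic background cannot be told apart in a strain comparison at any age.

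Library totals ran from 6378613 counts (NOR, 3 weeks, replicate 3) to 20493076 counts (BALB/c, 16 weeks, replicate 1). Lacrimal acinar markers (3 genes) summed to between 4287 and 12102 CPM, read counts scaled to a common library size, in all 18 libraries. Salivary gland RNA was present unevenly: 6 parotid and other salivary markers summed to 54829 and 55226 CPM in NOR replicates 2 and 3 of 3 weeks but to 60.4 CPM in replicate 1, and to 11941 CPM in BALB/c replicate 2 of 3 weeks against at most 1.77 CPM in its 2 companions. At later ages they summed to 3012, 14743 and 2075 CPM in NOR at 8 weeks, 33.3, 3995 and 11.5 in NOR at 16 weeks, 67.1 to 1646 in BALB/c at 8 weeks, and 20.7, 6221 and 319 in BALB/c at 16 weeks. B cell markers (5 genes) summed to 109, 360 and 220 CPM in NOR at 16 weeks, to between 5.77 and 19.3 CPM in NOR at 8 weeks, and to at most 4.56 CPM in every other library. T cell markers (6 genes) summed to 55.2, 134 and 89.4 CPM in NOR at 16 weeks and to at most 1.83 CPM in BALB/c. In a bulk sample, fewer cells of a type and less RNA per cell cannot be told apart.

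Of the 82 members, 54 passed the low-count filter and 28 did not. 4 members had no count in any library (Muc5ac, Muc19, St6gal2 and Mgat4c), and 14 in all, these 4 included, never had more than 3 counts in a library. Levels are given below in CPM on library sizes scaled by TMM. Where genes are compared with each other, CPM per kilobase of exon is used. A member is called when edgeR's quasi-likelihood F-test, fitted over all 13376 genes that passed the filter, gave a Benjamini-Hochberg adjusted p no larger than 0.05 and the fitted log2 fold change was 1 or more in size. Log2 fold changes are given with their standard error (SE) and are NOR minus BALB/c unless stated otherwise. Positive values mean higher in NOR.

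Per kilobase and averaged over the 18 libraries, the most abundant member was St6galnac2 (44.8 CPM per kb), followed by B4galt1 (30.9), Mgat2 (24.3) and Galnt3 (22.9). These are a sialyltransferase that acts on O-linked GalNAc, the main galactosyltransferase of N- and O-linked chains, an N-glycan branching enzyme and a GalNAc-transferase of secretory epithelia. The mucin genes stood far below. The 9 Muc genes together reached 0.415 ± 0.137 CPM per kb (SD, n = 3) in NOR and 0.391 ± 0.0847 in BALB/c at 3 weeks, and 0.840 ± 0.183 and 0.385 ± 0.182 at 16 weeks, whereas the 18 GalNAc-transferases together lay between 70.6 and 89.2 CPM per kb in all 6 group means.

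Upstream sequences are printed for 3 members whose level separated the strains in different ways. These are St6gal1, which rose in NOR with age, B4galt1, which fell after 3 weeks in both strains, and St3gal5, whose strain difference changed sign. The 250 bases before each RefSeq start are shown 5′ to 3′ on the strand of the gene (build GRCm38.p6). Capitals mark GC boxes (GGGCGG) and the gamma-activated sequence (TTCNNNGAA), searched on both strands together with the TATA box (TATAAA). RefSeq promoter windows were found for 58 of the 82 members, with 82 start sites.

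St6gal1, first start, chr16:23224490-23224739, + strand: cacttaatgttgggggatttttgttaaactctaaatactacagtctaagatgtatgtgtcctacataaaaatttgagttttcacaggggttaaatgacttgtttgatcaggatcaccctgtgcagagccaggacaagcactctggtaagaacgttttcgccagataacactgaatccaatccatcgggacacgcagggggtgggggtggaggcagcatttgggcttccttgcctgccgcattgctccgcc
St6gal1, middle start, chr16:23225771-23226020, + strand: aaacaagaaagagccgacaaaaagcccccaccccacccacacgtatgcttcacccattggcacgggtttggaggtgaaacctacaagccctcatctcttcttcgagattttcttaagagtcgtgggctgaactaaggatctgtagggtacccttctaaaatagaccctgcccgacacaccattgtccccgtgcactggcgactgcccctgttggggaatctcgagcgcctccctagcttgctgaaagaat
St6gal1, last start, chr16:23290220-23290469, + strand: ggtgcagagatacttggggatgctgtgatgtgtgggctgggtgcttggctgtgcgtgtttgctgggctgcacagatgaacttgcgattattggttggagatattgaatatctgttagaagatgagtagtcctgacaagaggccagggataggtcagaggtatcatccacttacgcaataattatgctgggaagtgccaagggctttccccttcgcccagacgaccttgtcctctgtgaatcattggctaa
B4galt1, chr4:40853985-40854234, - strand: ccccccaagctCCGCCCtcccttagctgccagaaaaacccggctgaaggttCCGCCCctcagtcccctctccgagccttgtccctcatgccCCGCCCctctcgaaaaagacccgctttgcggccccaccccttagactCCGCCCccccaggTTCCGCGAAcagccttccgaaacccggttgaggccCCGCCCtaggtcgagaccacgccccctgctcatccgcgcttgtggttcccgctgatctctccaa
St3gal5, chr6:72097358-72097607, + strand: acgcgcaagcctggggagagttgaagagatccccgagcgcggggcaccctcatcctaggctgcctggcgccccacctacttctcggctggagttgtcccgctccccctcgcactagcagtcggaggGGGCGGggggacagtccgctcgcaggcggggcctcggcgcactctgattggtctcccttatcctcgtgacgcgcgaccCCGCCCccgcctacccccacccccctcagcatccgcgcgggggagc

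The windows of St6gal1 contained none of these motifs, and its first and last starts lay 65730 bases apart. Counts were summed over all exons of a gene, so transcripts from these starts cannot be told apart in the table. The B4galt1 window held GC boxes and 1 gamma-activated sequence, and the St3gal5 window held 2 GC boxes. Of all 32851 windows of the same length, 32.7% held a GC box, 7.02% a gamma-activated sequence and 12.4% a TATA box. The interferon-stimulated response element was in 2.98%. Among the 82 member windows these were found in 40, 6, 6 and 1, in that order. A match describes the letters and is not evidence of a bound site or of a cause.

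The Muc genes found in the count table were almost silent in every group. Muc2 and Muc16 were not among the members selected by symbol, so their level was not measured here. Multimapping reads were not counted, so reads from repeated mucin sequence may be missing. Muc5ac and Muc19, gel-forming mucins of goblet cells and of mucous salivary glands, had 0 counts in all 18 libraries, which allows at most 0.118 to 0.527 CPM by library (3 counts; counting error only). Muc5b, Muc4, Muc13 and Muc15 never exceeded 3 counts in a library. Muc6, a gel-forming mucin of the stomach, reached at most 4 counts, in NOR replicate 1 and BALB/c replicate 3 of 16 weeks. Of the 7 goblet cell markers, Muc5ac, Tff1 and Tff3 were at or below 3 counts in every library and Clca1 in every library of 3 weeks. The whole list summed to 442 to 974 CPM, of which Agr2 alone gave 360 to 899.8 CPM.

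Muc1, a membrane-anchored mucin of epithelial surfaces, was the only mucin that passed the filter. Its libraries gave 0.286, 0.285 and 0.703 CPM in NOR at 3 weeks, 0.997, 1.30 and 0.529 at 8 weeks, and 1.10, 1.18 and 1.81 at 16 weeks. In BALB/c they gave 0.493, 0.403 and 0.633 CPM at 3 weeks, 0.708, 0.0699 and 0.226 at 8 weeks, and 0.333, 0.228 and 1.06 at 16 weeks. At 16 weeks the lowest NOR library was just above the highest BALB/c library, but no strain comparison passed the test (log2 fold change 1.54, SE 0.60, adjusted p = 0.0658 at 8 weeks and 1.21, SE 0.52, adjusted p = 0.0582 at 16 weeks by edgeR). Muc1 was called at 16 weeks with a replicate block (1.30, adjusted p = 0.0482) and without BALB/c replicate 3 (2.19, adjusted p = 0.0052). At 8 weeks it was called without NOR replicate 3 (1.83, adjusted p = 0.041) or without BALB/c replicate 1 (2.54, adjusted p = 0.0143). The other edgeR fits that each left out 1 library did not call Muc1. Their adjusted p ran from 0.0519 to 0.206 at 16 weeks and from 0.143 to 0.236 at 8 weeks. Muc20, another membrane-anchored mucin, had 1 to 23 counts in a library and was not tested.

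**Figure D1:**
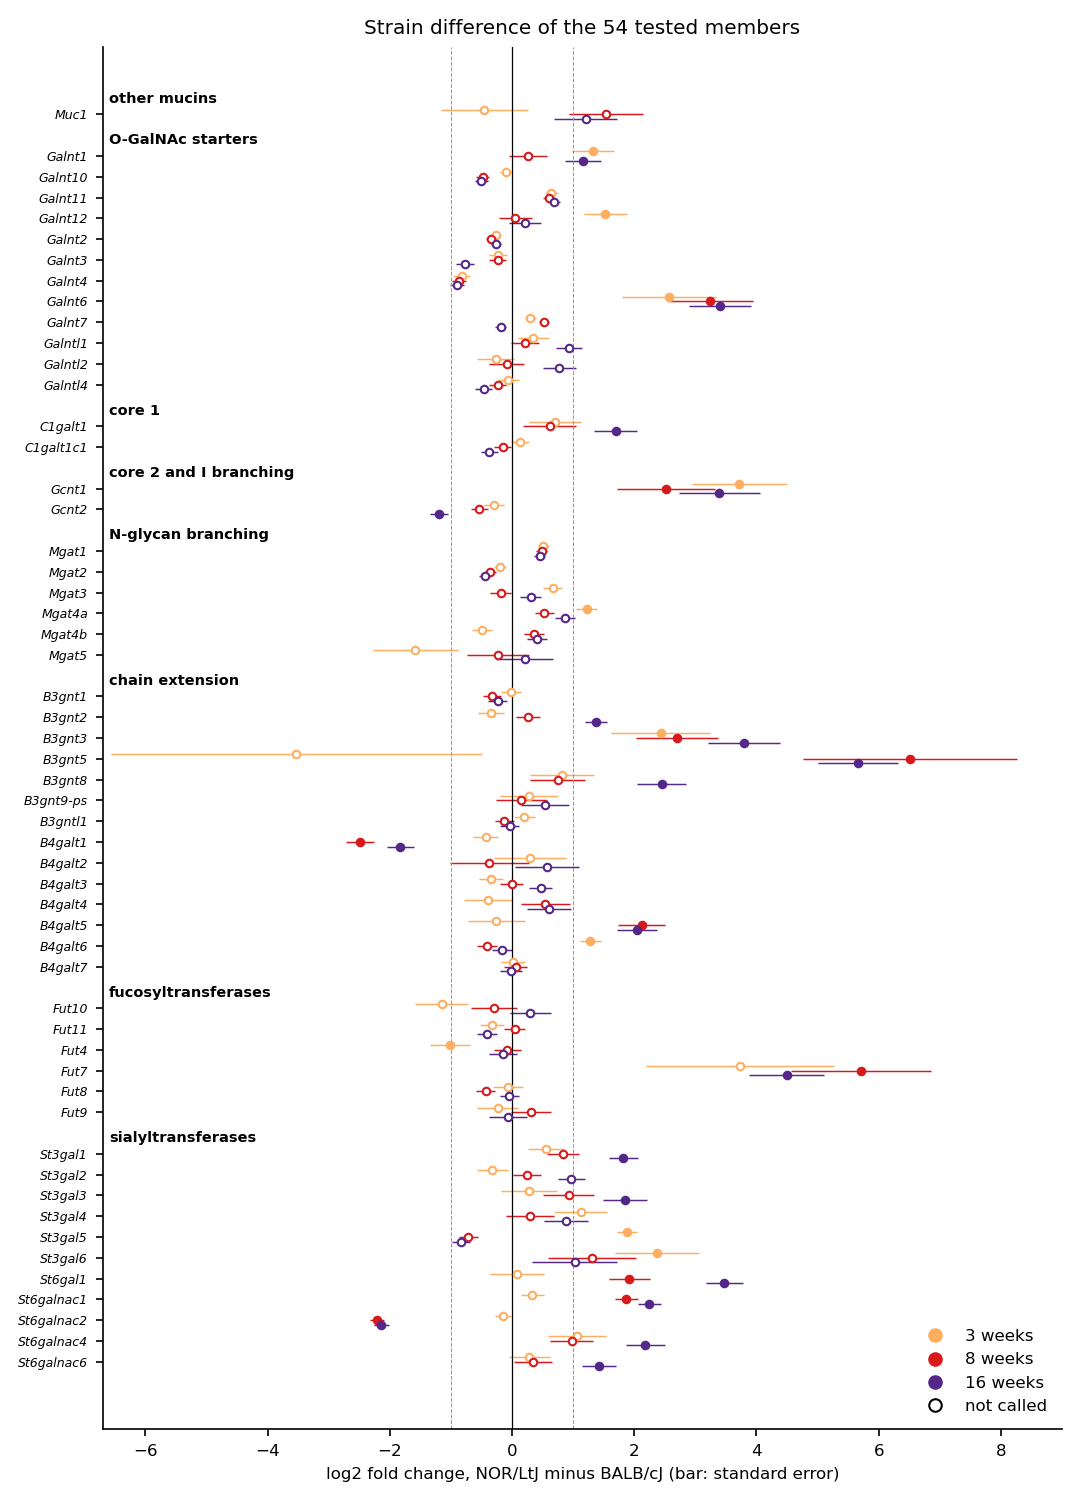
Log2 fold change (NOR minus BALB/c, x axis) of each of the 54 tested members at 3, 8 and 16 weeks, grouped by role, with bars for the standard error and filled points for members called by adjusted p and fold. At 16 weeks 16 members were called higher and 3 lower in NOR, with St6galnac2 and B4galt1 on the left and Fut7, B3gnt5, B3gnt3 and St6gal1 on the right.

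Between the strains, 10 members were called at 3 weeks (9 higher and 1 lower in NOR), 10 at 8 weeks (8 higher and 2 lower) and 19 at 16 weeks (16 higher and 3 lower). These were 18.5%, 18.5% and 35.2% of the 54 tested members. Over all 13376 genes the same rule called 5.26% at 3 weeks (3.54% higher and 1.71% lower), 11.6% at 8 weeks (8.93% and 2.65%) and 19.4% at 16 weeks (14.1% and 5.22%). The median log2 fold change of the tested members was 0.10, 0.23 and 0.50 at the 3 ages, beside 0.01, 0.02 and -0.01 over all genes tested. The strain difference itself changed from 3 to 16 weeks in 12 members (10.7% of all genes), 7 toward higher and 5 toward lower values in NOR, beside 7.51% and 3.15% of all genes. From 8 to 16 weeks it changed in 2 members, St6gal1 and B3gnt2 (2.85% of all genes).

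The sialyltransferases gave 7 of the 19 calls at 16 weeks. Of the 11 that were tested, 2 were called at 3 weeks, 3 at 8 weeks and 7 at 16 weeks (6 higher and 1 lower in NOR), and their median log2 fold change at 16 weeks was 1.43. Summed over the 14 genes, however, the family was lower in NOR at that age, at 61.3 ± 5.18 CPM per kb against 117 ± 3.74 in BALB/c (SD, n = 3), with St6galnac2 making up 88.0% of the BALB/c sum and 38.2% of the NOR sum.

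St6galnac2 adds sialic acid in alpha 2,6 linkage to the GalNAc of O-linked chains. Its libraries gave 25.0, 37.9 and 32.2 CPM in NOR and 31.4, 39.9 and 33.9 CPM in BALB/c at 3 weeks, where the strains overlapped (log2 fold change -0.15). At 8 weeks BALB/c stood at 193, 189 and 166 CPM and NOR at 37.8, 42.8 and 37.8. At 16 weeks BALB/c stood at 218, 207 and 206 CPM and NOR at 44.6, 50.9 and 47.2. BALB/c glands thus gained the transcript between 3 and 8 weeks (log2 fold change 2.38, SE 0.12, adjusted p = 4.63e-11), whereas the change in NOR was 0.32 (SE 0.12, adjusted p = 0.0494). The strain difference was -2.21 (SE 0.12, adjusted p = 1.06e-10) at 8 weeks and -2.14 (SE 0.12, adjusted p = 1.69e-10) at 16 weeks. The test of the change from 3 to 16 weeks gave -1.99 (SE 0.17, adjusted p = 5.79e-07).

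St6galnac1, which acts on the same GalNAc and makes the sialyl-Tn structure, moved the other way. NOR libraries rose from 20.3, 25.9 and 22.8 CPM at 3 weeks to 51.3, 55.4 and 41.9 at 8 weeks (log2 fold change 1.11, SE 0.18, adjusted p = 0.000121) and stood at 41.6, 33.1 and 39.3 at 16 weeks. BALB/c libraries held 19.6, 15.7 and 19.1 CPM at 3 weeks, 8.81, 16.6 and 14.8 at 8 weeks and 10.03, 6.24 and 7.35 at 16 weeks. No NOR library overlapped a BALB/c library from 8 weeks on, and the strain difference was 1.87 (SE 0.18, adjusted p = 4.33e-07) and 2.25 (SE 0.19, adjusted p = 3.1e-08). The 2 genes are neighbours on the minus strand of chromosome 11 (mm10), with 70364 bases between the end of St6galnac2 (116676705 to 116694660) and the start of St6galnac1 (116765025 to 116775507). As a share of the sialyltransferase sum per kilobase, St6galnac1 went from 22.5% to 26.2% in NOR and from 24.4% to 2.79% in BALB/c between 3 and 16 weeks.

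**Figure D2:**
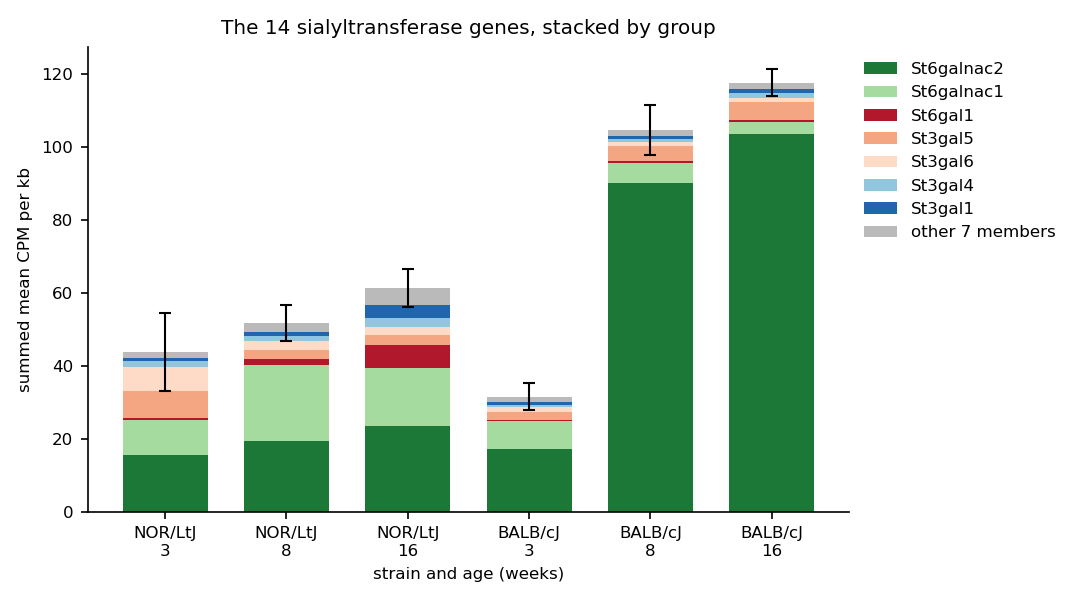
Mean CPM per kilobase of the 14 sialyltransferase genes, stacked for each strain and age, with bars for the SD of the family sum (n = 3). St6galnac2 makes up most of the BALB/c columns of 8 and 16 weeks, and St6galnac1, St6gal1 and St3gal1 take larger parts of the NOR columns.

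St6gal1, which caps N-linked chains with alpha 2,6 sialic acid and builds the ligand of CD22 on B cells, had the largest strain difference at 16 weeks among the tested St3gal and St6gal family members. It stood at 2.21, 1.24 and 3.16 CPM in NOR at 3 weeks, at 10.6, 6.20 and 7.93 at 8 weeks, and at 19.5, 42.6 and 29.4 at 16 weeks. BALB/c libraries stayed between 1.47 and 3.41 CPM at all ages. The strain difference was 0.08 at 3 weeks, 1.92 (SE 0.34, adjusted p = 0.000254) at 8 weeks and 3.48 (SE 0.30, adjusted p = 3.83e-08) at 16 weeks, and its growth from 3 to 16 weeks passed the test (3.39, SE 0.54, adjusted p = 0.000322). The growth from 8 to 16 weeks (1.56, SE 0.47, adjusted p = 0.0463) was lost with a replicate block, with only the groups compared in the fit, and in 8 of the 12 fits that each left out 1 library. The 3 NOR libraries of 16 weeks had the same order for St6gal1 as for the summed B cell markers (109, 360 and 220 CPM), with replicate 2 highest in both. This order was not particular to B cells. Summed T cell, macrophage, dendritic cell and endothelial markers had it too, while acinar, duct and plasma cell sums had the reverse order. The part of B cells or of any other cell type in the St6gal1 level was not tested.

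Among the alpha 2,3 sialyltransferases, 2 were called higher in NOR at 16 weeks. St3gal1, which caps core 1, stood at 14.8, 26.1 and 21.2 CPM in NOR and at 5.99, 6.70 and 5.14 in BALB/c (log2 fold change 1.82, SE 0.24, adjusted p = 4.68e-06). St3gal3, which acts on N-linked and type 1 chains, stood at 1.73, 3.06 and 3.19 against 0.713, 0.457 and 0.961 CPM (1.85, SE 0.35, adjusted p = 0.000259). St3gal2 passed the p threshold without the fold (0.97, adjusted p = 0.0012), as did St3gal4 (0.88, adjusted p = 0.0486), and 4.1% of the St3gal4 exon sequence is shared with another gene. St6galnac4 and St6galnac6, which act on disialyl structures and gangliosides, were both higher in NOR at 16 weeks (2.18, SE 0.32, adjusted p = 1.49e-05 and 1.43, SE 0.28, adjusted p = 0.000311), and their exons share 128 bases.

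St3gal5, the GM3 synthase that starts the ganglioside series, reversed its strain difference. At 3 weeks it stood at 17.1, 18.5 and 18.8 CPM in NOR and at 3.996, 6.29 and 4.68 in BALB/c. At 8 weeks the values were 6.45, 7.07 and 5.29 in NOR and 10.9, 10.7 and 9.42 in BALB/c. At 16 weeks they were 8.15, 5.77 and 6.70 against 12.1, 13.6 and 10.9 CPM. The groups did not overlap at any age, with NOR above at 3 weeks and below at 8 and 16 weeks. Its log2 fold change was 1.88 (SE 0.16, adjusted p = 9.98e-08), then -0.72 (SE 0.16, adjusted p = 0.00171) and -0.84 (SE 0.15, adjusted p = 0.000164), and the change from 3 to 16 weeks was -2.71 (SE 0.22, adjusted p = 3.25e-07). Within strains it fell in NOR between 3 and 8 weeks (-1.53, SE 0.16, adjusted p = 7.53e-07) and rose in BALB/c (1.07, SE 0.16, adjusted p = 6.3e-05). This 3-week call held without the libraries rich in salivary RNA.

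**Figure D3:**
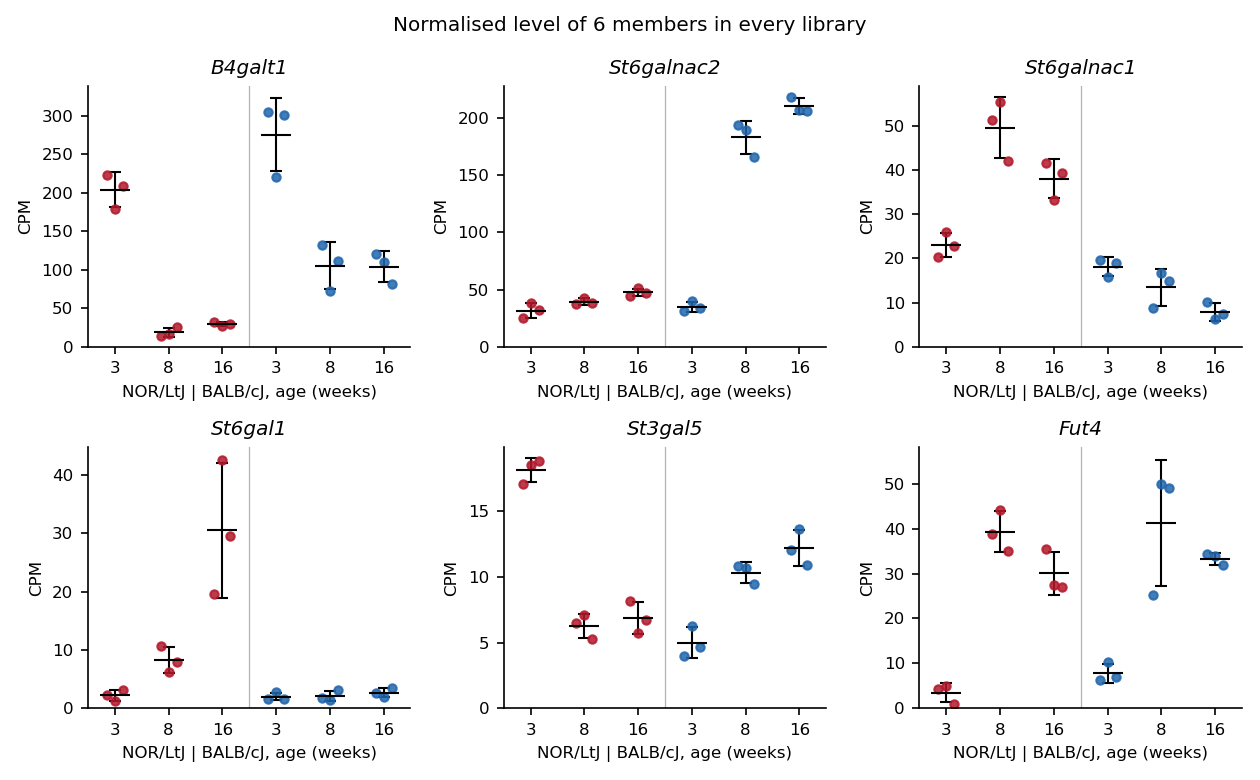
CPM of B4galt1, St6galnac2, St6galnac1, St6gal1, St3gal5 and Fut4 in each of the 18 libraries (points), with the group mean and SD (n = 3), NOR in red on the left and BALB/c in blue on the right of each panel, by age in weeks. St6galnac2 rises in BALB/c from 35.1 to 183 CPM while NOR reaches at most 50.9 CPM, and B4galt1 falls from 204 to 18.7 CPM in NOR.

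Of the enzymes that lengthen chains, B4galt1 was the most abundant. It encodes the beta 1,4 galactosyltransferase that most tissues use to make N-acetyllactosamine. NOR libraries held 224, 179 and 209 CPM at 3 weeks, 13.8, 17.1 and 25.3 at 8 weeks and 32.0, 27.0 and 29.1 at 16 weeks. BALB/c libraries held 305, 221 and 301 CPM at 3 weeks, 132, 72.6 and 111 at 8 weeks and 120, 111 and 81.8 at 16 weeks. It fell in both strains between 3 and 8 weeks, by 3.44 on the log2 scale in NOR (SE 0.23, adjusted p = 5.23e-09) and by 1.39 in BALB/c (SE 0.21, adjusted p = 5.3e-05). NOR stood below every BALB/c library at 8 weeks (-2.49, SE 0.22, adjusted p = 1.32e-07) and at 16 weeks (-1.83, SE 0.22, adjusted p = 1.37e-06), while at 3 weeks the difference was -0.43 and the member was not called. From 3 to 16 weeks the strain difference changed by -1.39 (SE 0.29, adjusted p = 0.00263). B4galt1 made up 71.0% of the B4galt sum per kilobase in NOR at 3 weeks and 24.9% at 16 weeks, and 83.1% and 55.2% in BALB/c.

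B4galt6 and B4galt5 make lactosylceramide, the substrate of St3gal5. B4galt6 was lower in BALB/c at 3 weeks (28.8, 38.7 and 31.4 CPM) than in NOR (89.9, 84.1 and 63.8), a log2 fold change of 1.28 (SE 0.18, adjusted p = 3.63e-05) that held without the libraries rich in salivary RNA. BALB/c then rose to 73.8, 98.6 and 90.8 CPM at 8 weeks (1.42, SE 0.17, adjusted p = 5.4e-06), and the strain difference changed by -1.44 (SE 0.24, adjusted p = 0.000501) from 3 to 16 weeks. B4galt5 was lower in level but went up in NOR, to 4.81, 3.53 and 3.47 CPM at 8 weeks and 5.18, 11.7 and 7.23 at 16 weeks, beside 0.786, 1.33 and 0.621 and then 1.57, 1.52 and 2.74 in BALB/c (2.12, SE 0.38, adjusted p = 0.000343 and 2.05, SE 0.32, adjusted p = 3.72e-05).

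The B3gnt enzymes, many of which add the GlcNAc that starts each lactosamine repeat, were higher in NOR at 16 weeks where they were called. The row B3gnt1, now named B4gat1, was not called between the strains. B3gnt5, which makes the lacto-series glycolipid core, had no count in the NOR libraries of 3 weeks and stood at 1.17, 0.434 and 0.588 CPM at 8 weeks and at 5.04, 17.3 and 12.01 at 16 weeks. BALB/c libraries held at most 0.384 CPM. At 8 weeks all 3 BALB/c libraries were at 0, so the strain difference was at least 3.1-fold against a floor of 3 counts per library, and at 16 weeks the log2 fold change was 5.66 (SE 0.66, adjusted p = 4.93e-06). B3gnt5 could pass the low-count filter only through NOR libraries, and was not called at 8 weeks with only the groups compared in the fit. B3gnt2, which makes poly-lactosamine on immune cells, stood at 9.18, 16.5 and 11.5 CPM in NOR and 4.66, 4.41 and 5.33 in BALB/c at 16 weeks (1.38, SE 0.18, adjusted p = 5.39e-06), with no overlap. B3gnt8 (2.45, SE 0.39, adjusted p = 4.5e-05) and B3gnt3 (3.80, SE 0.59, adjusted p = 2.91e-05) were low genes, with at most 4.43 and 2.24 CPM in a library. B3gnt3 made up 0.582% of the B3gnt sum per kilobase in BALB/c at 16 weeks and 4.99% in NOR. Like B3gnt5, it could pass the low-count filter only through NOR libraries, and its fold rests on few BALB/c counts. Replicate 2 of NOR at 16 weeks was the highest library for each of these 4 genes, as it was for the B and T cell markers and, within its group, for the salivary markers. Their part in these levels was not tested.

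**Figure D4:**
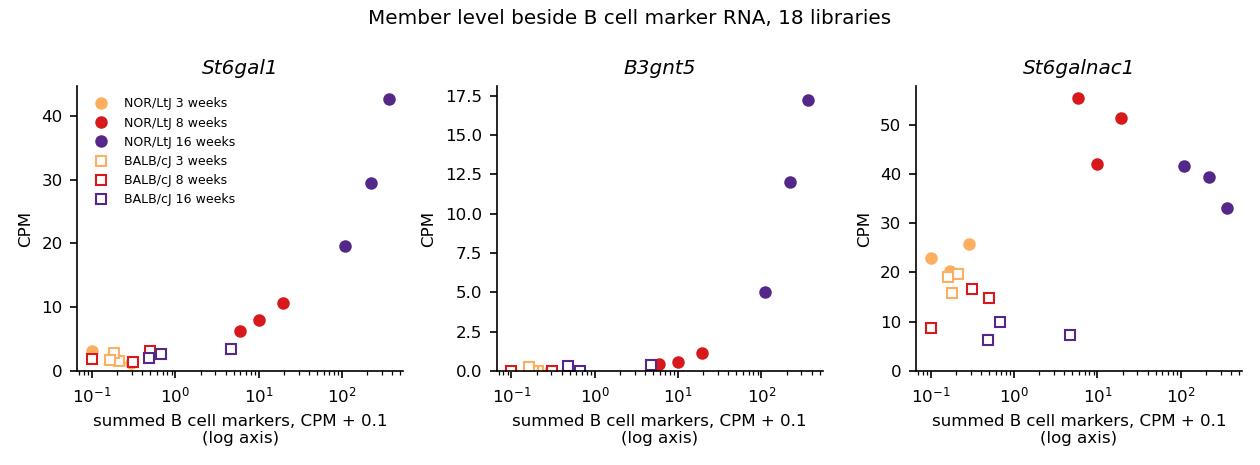
CPM of St6gal1, B3gnt5 and St6galnac1 (y axes) against the summed CPM of 5 B cell markers plus 0.1 (log x axis) in the 18 libraries, with filled circles for NOR, open squares for BALB/c and colours for age. St6gal1 and B3gnt5 reach their highest values, 42.6 and 17.3 CPM, in the NOR library of 16 weeks with 360 CPM of B cell markers, while St6galnac1 is highest in NOR at 8 weeks.

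The GalNAc-transferases start every mucin-type chain. Galnt3 and Galnt10 gave 28.0% and 25.0% of the family's CPM per kb in NOR at 3 weeks and 22.3% and 20.01% at 16 weeks. In BALB/c they gave 33.2% and 27.0% at 3 weeks and 31.8% and 23.6% at 16 weeks. Of the 12 that were tested, 10 passed the adjusted p at 16 weeks, 5 in each direction, and 2 of them passed the fold as well. Of all genes 50.9% passed the adjusted p alone at this age, 25.5% higher and 25.4% lower. Galnt3 stood at 76.1, 42.1 and 60.0 CPM in NOR and 105, 105 and 91.6 in BALB/c (-0.77, SE 0.15, adjusted p = 0.000265). Galnt4 was lower in NOR by a like amount at every age (-0.83, -0.87 and -0.90; adjusted p of at most 0.0002), and Galnt11 was higher by a like amount (0.64, 0.60 and 0.69; adjusted p of at most 0.000274). Galnt10 (-0.50, adjusted p = 0.000509) and Galnt2 (-0.26, adjusted p = 0.0176) were lower at 16 weeks.

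Galnt6, a low gene in these glands, passed both thresholds at all 3 ages. It stood at 5.52, 10.4 and 8.82 CPM in NOR and 0.380, 1.07 and 0.961 in BALB/c at 16 weeks (3.40, SE 0.50, adjusted p = 1.78e-05), and at 3.23, 1.55 and 1.82 against 0.393, 0.210 and 0.113 at 8 weeks (3.24, SE 0.69, adjusted p = 0.00152). Galnt1, a broadly expressed family member, stood at 20.4, 28.6 and 24.2 against 9.88, 12.03 and 11.3 CPM at 16 weeks (1.16, SE 0.30, adjusted p = 0.00318).

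C1galt1 makes core 1 from the first GalNAc, and C1galt1c1 is the chaperone it needs. C1galt1 stood at 2.55, 3.65 and 3.08 CPM in NOR and 0.808, 1.14 and 0.961 in BALB/c at 16 weeks (1.70, SE 0.35, adjusted p = 0.000518) and rose in NOR from 8 to 16 weeks (1.79, SE 0.36, adjusted p = 0.000933). C1galt1c1 was much higher per kilobase in every group and differed by -0.37 at 16 weeks (SE 0.14, adjusted p = 0.0377), with overlapping libraries (24.9, 15.8 and 15.4 against 26.9, 24.2 and 21.6 CPM).

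The 2 tested branching enzymes of the Gcnt family went in opposite directions at 16 weeks. Gcnt1, the core 2 enzyme that leukocytes use to build P-selectin ligand, stood at 5.80, 15.9 and 11.7 CPM in NOR and 0.665, 1.83 and 0.913 in BALB/c (3.39, SE 0.66, adjusted p = 0.000311). Gcnt2, which makes the branched I antigen, stood at 11.4, 8.51 and 7.55 in NOR and 21.7, 21.5 and 20.1 in BALB/c (-1.19, SE 0.15, adjusted p = 2.74e-06). Gcnt2 had risen in BALB/c between 3 and 8 weeks (1.12, SE 0.15, adjusted p = 1.14e-05), and in NOR it fell from 8 to 16 weeks by 0.91 (SE 0.15, adjusted p = 0.000213).

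Among the N-glycan branching enzymes none of the 6 tested was called at 8 or 16 weeks by edgeR, and DESeq2 called 0 as well. By edgeR 4 at each age had an unadjusted p under 0.05. At 8 weeks 3 passed the adjusted p without the fold, 2 higher and 1 lower in NOR. At 16 weeks 4 did, 3 higher and 1 lower, where 50.9% of all genes passed the adjusted p. Mgat2, the most abundant, stood at 54.3, 40.8 and 45.9 CPM in NOR and 64.1, 68.4 and 58.2 in BALB/c at 16 weeks (-0.44, SE 0.10, adjusted p = 0.000832). Mgat1, which opens the pathway to complex N-glycans, was higher in NOR by 0.51, 0.48 and 0.46 at the 3 ages (adjusted p of at most 0.000849). Mgat3, which adds the bisecting GlcNAc, fell in NOR from 13.6, 18.1 and 16.2 CPM at 3 weeks to 4.28, 6.51 and 5.94 at 8 weeks (-1.51, SE 0.17, adjusted p = 1.93e-06) and in BALB/c by 0.66 (SE 0.17, adjusted p = 0.00549).

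Of the 6 fucosyltransferases tested, 2 (Fut4 and Fut8) were called between 3 and 8 weeks in each strain, and 2 were called between strains (Fut4 at 3 weeks, Fut7 at 8 and 16 weeks). Fut4, which makes the Lewis x structure, stood at 4.21, 5.04 and 1.05 CPM in NOR and 6.24, 10.2 and 7.03 in BALB/c at 3 weeks. At 8 weeks it stood at 38.8, 44.1 and 35.1 and at 25.2, 49.9 and 49.0 CPM, a rise of 3.36 (SE 0.30, adjusted p = 1.53e-07) in NOR and 2.43 (SE 0.25, adjusted p = 8.51e-07) in BALB/c. The strains overlapped at 8 weeks. Fut8, which adds the core fucose of N-glycans, rose likewise by 2.17 (SE 0.21, adjusted p = 3.33e-07) and 2.54 (SE 0.19, adjusted p = 9e-09), from 3.59 ± 0.235 to 16.4 ± 2.26 CPM in NOR and from 3.91 ± 1.32 to 22.2 ± 2.49 in BALB/c (SD, n = 3). The family sum per kilobase accordingly went from 3.53 ± 0.467 to 17.01 ± 1.92 CPM in NOR and from 4.93 ± 0.813 to 18.6 ± 4.203 in BALB/c.

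Fut7, the leukocyte enzyme that completes sialyl Lewis x, was the fucosyltransferase that separated the strains in the older groups. Its 3 NOR libraries held 0.411, 0.372 and 0.470 CPM at 8 weeks and 0.759, 1.96 and 1.38 at 16 weeks, while BALB/c libraries held at most 2 counts. Measured against a floor of 3 counts per library, NOR levels were at least 1.77-fold higher at 8 weeks and at least 5.99-fold higher at 16 weeks (edgeR adjusted p = 0.00153 and 2.34e-05). Fut7 could pass the low-count filter only through NOR libraries, so its being tested already rested on its NOR level. At 8 weeks it was not called with only the groups compared in the fit. Glycam1, Chst4 and Madcam1, markers of the high endothelial venules that carry sialyl Lewis x ligands, summed to 5.87, 13.6 and 6.70 CPM in NOR at 16 weeks and to at most 0.384 CPM in any other library. Madcam1 never exceeded 3 counts in a library, so the sum came from Glycam1 and Chst4. Of the 3 genes 1 was tested, and it was called higher in NOR at 16 weeks.

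At 3 weeks several of the calls went with libraries that carried salivary gland RNA. St3gal6, which caps type 2 lactosamine, stood at 0.714, 15.5 and 14.8 CPM in NOR replicates 1, 2 and 3 and at 1.15, 3.63 and 1.20 in BALB/c, and the high libraries were those with 54829, 55226 and 11941 CPM of salivary markers. Gcnt1 (0.500, 13.5 and 10.7 against 0.438, 1.05 and 0.380 CPM) and Galnt1 (6.07, 24.1 and 21.6 against 5.64, 8.72 and 5.70 CPM) had the same order. So did Galnt6 (0.286, 2.76 and 1.58 against 0.164, 0.565 and 0.0633 CPM), while Galnt12 stood at 1.36 CPM in replicate 1 and at 3.80 and 4.22 CPM in replicates 2 and 3. In each of these 5 genes NOR replicate 1 lay within or below the range of the BALB/c libraries. With NOR replicates 2 and 3 and BALB/c replicate 2 left out, an alternative added after the values were seen, 3 members were called in place of 10, and St3gal5 and B4galt6 were the only 2 of the original 10. That fit has 1 NOR library at 3 weeks, which is assumed to vary like the other groups. The log2 fold change then went from 2.37 to -0.73 for St3gal6, from 3.72 to 0.27 for Gcnt1, from 1.33 to 0.09 for Galnt1, from 2.56 to 1.22 for Galnt6 and from 1.53 to 0.75 for Galnt12. Mgat4a, an N-glycan branching enzyme, moved from 1.22 to 0.89, while Fut4, the 1 member called lower, went from -1.02 to -0.66. B3gnt3 stood at 2.45, within the 2.15 to 2.93 of its fits that each left out 1 library. Its 3-week call was nevertheless lost in all 6 of those fits. With the salivary marker covariate and all libraries kept, 4 of the 10 were still called: B4galt6, Galnt12, Gcnt1 and St3gal5.

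**Figure D5:**
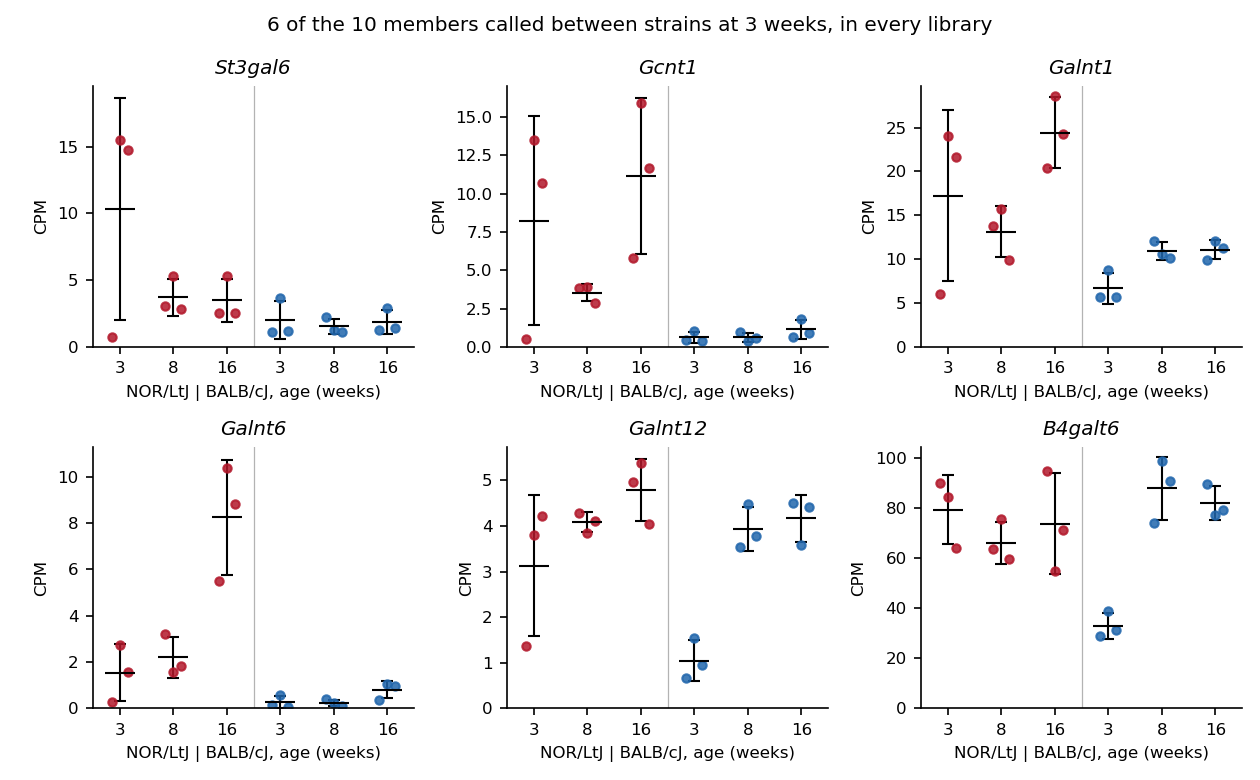
CPM of 6 of the 10 members called between strains at 3 weeks in each of the 18 libraries (points), with the group mean and SD (n = 3), NOR in red and BALB/c in blue, by age in weeks. In St3gal6, Gcnt1 and Galnt1 the NOR replicate 1 of 3 weeks lies at 0.714, 0.500 and 6.07 CPM beside replicates 2 and 3 at 10.7 CPM or more, whereas B4galt6 has its 3 NOR libraries between 63.8 and 89.9 CPM.

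Within strains, 11 members were called between 3 and 8 weeks in NOR (12.2% of all genes) and 9 in BALB/c (6.95% of all genes). In both strains 5 members were called, B4galt1, Fut4, Fut8, Galntl4 and St3gal5, of which St3gal5 fell in NOR and rose in BALB/c. Galntl4, now named Galnt18, rose from 7.78 ± 0.842 to 18.2 ± 2.80 CPM in NOR and from 8.34 ± 1.75 to 21.4 ± 0.907 CPM in BALB/c. Between 8 and 16 weeks 13 members rose in NOR and 0 were called lower (9.66% of all genes called). In BALB/c edgeR called 0 members over the same interval (0.441% of all genes), with 9 at an unadjusted p under 0.05 and 0 called by DESeq2. The NOR count rested partly on replicate 2 of 16 weeks, the library with most lymphocyte marker RNA, which also held 3995 CPM of salivary markers against 33.3 and 11.5 in its companions. The part of either was not tested. Without it 6 of the 13 were called (B3gnt5, C1galt1, Galnt6, St3gal1, St3gal3 and St6gal1), and without replicate 1 the count was 21.

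Other genes of the glycosylation pathway were counted by list at 16 weeks, where 50.9% of all genes passed the adjusted p (25.5% higher and 25.4% lower in NOR) and 19.4% passed the fold as well. Of 16 tested genes for sugar nucleotide supply, 3 passed the adjusted p upward and 7 downward in NOR at 16 weeks, none with the fold, and their median log2 fold change was -0.22. Among them Gne, which opens sialic acid synthesis, stood at 62.8 against 88.4 CPM (-0.50, adjusted p = 0.00245) and Cmas, which activates sialic acid, at 32.7 against 21.9 CPM (0.58, adjusted p = 6.83e-05). Of 9 Golgi sugar transporters 4 were lower and 0 higher, of which Slc35a3, the carrier of UDP-GlcNAc, stood at 19.6 against 30.4 CPM (-0.64, adjusted p = 3.48e-05). Of 8 tested sulfation genes 1 was higher and 4 lower, and the higher was Chst2, a GlcNAc sulfotransferase of selectin ligands (4.73 against 0.719 CPM, 2.70, adjusted p = 6.98e-06). Of 15 other terminal transferases 6 were higher and 4 lower, and 4 were called higher. These were the polysialyltransferase St8sia4 (10.2 against 2.06 CPM, 2.34, adjusted p = 2.61e-05), the ganglioside enzyme St8sia1 (1.33 against 0.0959 CPM, 3.53), the galactosyltransferase B3galt5 (3.61 against 0.331 CPM, 3.37) and B4galnt4, which was at least 6-fold higher. The BALB/c mean of St8sia1 lay below the level of 3 counts in these BALB/c libraries (0.143 to 0.228 CPM), so its fold rests on few counts. Of 9 glycosidases 3 were higher and 3 lower, with the sialidase Neu3 at 1.36 against 0.356 CPM (1.90, adjusted p = 0.000227). Of 4 tested mucus regulators and partners 2 were lower and 0 higher, Agr2, a chaperone of mucin folding (467 against 761 CPM, -0.70, adjusted p = 0.00147), and Spdef, a goblet cell transcription factor (5.76 against 8.51 CPM, -0.60, adjusted p = 0.0147). Gne, Cmas, Slc35a3, Agr2 and Spdef did not pass the fold and were named after their values had been seen.

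Single markers of resident epithelium did not pass the same rule: of the lacrimal acinar (3), duct (5) and myoepithelial (5) marker genes, 0 were called by edgeR at 3, 8 or 16 weeks, while all 6 T cell and 5 B cell markers were called higher in NOR at 8 and at 16 weeks. The marker sums nevertheless differed in part. The acinar markers summed to 6732, 4287 and 5339 CPM in NOR at 16 weeks and to between 7766 and 8393 CPM in BALB/c, without overlap. At 8 weeks they were also lower in NOR (6750 to 8321 against 8487 to 9565 CPM). Myoepithelial sums were higher in NOR without overlap at 8 weeks (186 to 220 against 130 to 142 CPM) and 16 weeks (172 to 196 against 137 to 154). Duct sums were higher in NOR at 8 weeks (620 to 669 against 537 to 576 CPM) and overlapped at 16 weeks. The part of cell composition in the strain differences of the members was not tested.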

How the data were processed

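RNA of 18 exorbital lacrimal gland pools or single glands was sequenced as stranded poly(A) libraries. The authors aligned the reads with HISAT2 to mm10 and deposited raw counts per gene made with featureCounts 1.6.2, without multimapping or overlapping reads and without using strand, so reads of antisense or overlapping genes were not separated. Every value column was mapped to a sample (0 were left unmapped).

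Counts were fitted with edgeR 4.0.16 (R 4.3.3) over all 18 libraries with 1 mean per group, TMM scaling (factors 0.815 to 1.44) and a filter of 10 counts (15 in total), which kept 13376 of 23337 genes. The quasi-likelihood F-test with Benjamini-Hochberg adjustment was used for all comparisons, including the changes of the strain difference with age. DESeq2 1.42.0 and the other alternatives are described in the closing section. The labels do not say whether libraries of a group came from independent cohorts, so p-values measure the spread between these libraries. An exact permutation test of 3 against 3 libraries cannot go below p = 0.1. Floors and counting limits use 3 counts and cover counting error only. The procedure was tested on simulated counts.

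Members and gene lists were chosen with earlier results of these data known. Named members were the mucins above 3 counts, members called between strains or in a change of the strain difference, the most abundant member of each role, and members called with age in both strains. From the pathway lists the genes called at 16 weeks were named. Galnt2, Galnt4, Galnt10, Galnt11, Mgat1, Mgat3 and St3gal4 were named after their values had been seen. Same-numbered libraries did not deviate together (correlations from -0.362 to 0.395), so the replicate numbers were not taken as pairs. Older symbols in the table include Galntl4 (now Galnt18) and B3gnt1 (now B4gat1). Upstream sequences are from RefSeq (GRCm38.p6).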

Additional observations from a re-analysis of the deposited data

Results flagged for a closer look

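The strain difference itself changed with age in 12 members between 3 and 16 weeks, by edgeR's test of that change over all genes. It moved toward higher values in NOR for St6gal1 (3.39 on the log2 scale), B4galt5 (2.30), St6galnac1 (1.91), B3gnt2 (1.73), St3gal2 (1.29) and St3gal1 (1.26). For B3gnt5 the fitted change was 9.19, a value that depends on the prior count because the 3 NOR libraries of 3 weeks held 0 counts. It moved toward lower values in NOR for St3gal5 (-2.71), St6galnac2 (-1.99), B4galt6 (-1.44), B4galt1 (-1.39) and Galnt12 (-1.32). Of these, B3gnt5, B4galt5, Galnt12 and St3gal2 were not called when the 3-week libraries rich in salivary RNA were left out, with fitted values of 9.76, 1.84, -0.53 and 1.32. In the 12 fits that each left out 1 library, the change from 3 to 16 weeks was lost in 8 for Galnt12, 5 for B3gnt5 and 3 for St3gal1. Between 8 and 16 weeks the strain difference changed in St6gal1 (1.56) and B3gnt2 (1.12), and neither was called without NOR replicate 2 of 16 weeks or without BALB/c replicate 1 of 8 weeks.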

How the results depend on the processing

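The count of members called between strains at 8 weeks stayed between 9 and 11, and that at 16 weeks between 19 and 25, over the alternatives run. All 19 members called at 16 weeks were called in each of them. The 3-week count of 10 fell to 5 with only the groups compared in the fit, to 5 with a salivary marker covariate, and to 3 with the 3-week libraries rich in salivary RNA left out, a choice made after seeing the data, where St3gal6 changed sign (-0.73). Over all genes the rule called 703 of 13376 at 3 weeks in the main fit. It called 562 of 11780 with only the groups compared and 617 of 13376 with the covariate. Leaving out 1 library at a time gave 5 to 9 calls at 3 weeks, 11 to 19 for strain differences that changed from 3 to 16 weeks, 0 to 5 for those that changed from 8 to 16 weeks, and 6 to 21 for NOR at 16 against 8 weeks, where NOR replicate 2 of 16 weeks gave the lowest count and replicate 1 the highest. The salivary covariate raised the change from 3 to 16 weeks to 19 members and that from 8 to 16 weeks to 5, and only the groups compared gave 1 for the latter. Over all 13376 genes the covariate took these counts from 1427 to 1683 and from 381 to 568. With only the groups compared, 275 of 13226 genes changed from 8 to 16 weeks. DESeq2, its size factors, TMM without the 20 most abundant genes and no low-count filter left these counts within 1.5 times the values reported. The cause of these shifts was not tested.

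With the replicate number as a block, 1 member in place of 2 had a strain difference that changed from 8 to 16 weeks (St6gal1 was lost, 1.53). B3gnt3 at 3 weeks (2.39), Fut8 at 8 weeks (-0.43) and B4galt5 in NOR at 16 against 8 weeks (0.97) also lost their call or their adjusted p, and Muc1 at 16 weeks gained one (1.30). The numbers did not pair the libraries.

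A level of 3 counts corresponds to 0.118 to 0.527 CPM by library, and values near or below it rest on few counts.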

Other observations

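Prol1, a salivary and lacrimal proline-rich protein gene for which RefSeq gives the synonym Muc10, lies outside the symbol rule. It stood at 0.143, 3.04 and 4.39 CPM in NOR and at 0.0547, 0.161 and 0 CPM in BALB/c at 3 weeks. At 8 weeks the values were 15.8, 10.5 and 12.3 CPM in NOR and 10.9, 16.5 and 14.95 CPM in BALB/c, and at 16 weeks 5.52, 7.41 and 6.91 against 11.3, 11.7 and 8.79 CPM. NOR and BALB/c overlapped at 8 weeks, and NOR lay below BALB/c at 16 weeks. Replicates 2 and 3 of NOR at 3 weeks, the higher libraries of that group, are those with most salivary marker RNA.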
